A study of Mus musculus with 18 samples.

Results

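The insulin and IGF1 signalling genes described here were the ligand Igf1, the receptors Igf1r, Igf2r and Insr, the adaptors Irs1 and Irs2, the kinase Akt1, and the transcription factors Foxo1 and Foxo3. All probe sets that the array annotation gives to these 9 genes were taken by symbol, which yielded 27 of the 45101 probe sets on the array. Of these, 22 were bright enough to be tested, with at least 1 for every gene. The other 5, for Akt1, Foxo1, Foxo3 and Insr, lay in the dimmest 40% of probe sets and were left out of the tests. A further 2 probe sets carry the symbol of Igf2r or Foxo3 beside that of another gene and were not assigned.

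RNA of mouse hippocampus, a part of the brain on which memory for places depends, was measured in 18 samples, each on its own Affymetrix array. The groups were aged impaired (6 samples, with spatial memory labelled impaired), aged unimpaired (6 samples, labelled unimpaired) and young (6 samples, labelled unimpaired as well). No genotype or treatment is named for any group, and strain, sex, age, scan date and hour of collection are not known here. Since no label states that the 6 samples of a group are separate animals, the p-values here reflect the spread among samples, and some of that spread may be technical.

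Insulin and IGF1 bind related receptor tyrosine kinases, Insr and Igf1r, which phosphorylate the Irs adaptors. The adaptors recruit PI3 kinase, which leads to activation of Akt, and Akt phosphorylates the FOXO factors and so keeps them out of the nucleus. In the brain the pathway is known for roles in neuronal survival, synaptic plasticity and memory, and reduced activity of the pathway lengthens life in worms, flies and mice.

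Sequence upstream of the genes was taken from RefSeq on build GRCm38.p6, as windows of 300 bases around an annotated start site. Windows were found for 8 of the 9 genes (9 windows, since Akt1 has a pair), and Insr is named only. The first pair of sequences shows how unlike the start regions of the ligand and its receptor are, with each CpG in capitals. The Igf1 window (chr10:87860861-87861160, plus strand) holds 6 CpG and the Igf1r window (chr7:67952007-67952306, plus strand) 48, beside a median of 7 over all windows. The Akt1 window (chr12:112674835-112675134, minus strand) is shown because it was the only member window that held the letters GTAAACA or, on the other strand, TGTTTAC, which FOXO factors are known to bind. These letters, in capitals there, begin 161 bases before the start site.
Igf1: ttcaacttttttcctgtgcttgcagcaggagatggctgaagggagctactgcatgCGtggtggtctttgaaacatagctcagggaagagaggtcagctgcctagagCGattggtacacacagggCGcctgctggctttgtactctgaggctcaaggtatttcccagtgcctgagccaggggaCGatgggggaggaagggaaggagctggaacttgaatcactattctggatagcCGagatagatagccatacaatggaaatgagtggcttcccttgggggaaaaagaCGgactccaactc
Igf1r: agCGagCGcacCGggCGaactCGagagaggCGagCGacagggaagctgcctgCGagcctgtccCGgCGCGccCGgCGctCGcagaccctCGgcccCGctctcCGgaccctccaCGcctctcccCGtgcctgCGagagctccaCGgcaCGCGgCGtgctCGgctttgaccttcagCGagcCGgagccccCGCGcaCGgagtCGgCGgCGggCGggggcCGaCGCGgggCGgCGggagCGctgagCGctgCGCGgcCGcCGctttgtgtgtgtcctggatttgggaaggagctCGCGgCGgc
Akt1: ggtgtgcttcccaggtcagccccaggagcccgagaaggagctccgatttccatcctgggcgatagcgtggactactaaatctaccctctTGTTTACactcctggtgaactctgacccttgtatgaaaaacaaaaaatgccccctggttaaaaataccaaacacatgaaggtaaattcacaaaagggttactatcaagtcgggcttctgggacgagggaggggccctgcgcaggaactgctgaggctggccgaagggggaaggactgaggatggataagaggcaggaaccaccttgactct
The same letters stood in 1199 of 32851 windows, or 3.65%. A match describes the sequence and is not evidence of binding.

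Values are log2(signal + 16) after each array was scaled to the same trimmed mean, and a difference on this scale understates the change of dim probe sets. Levels of different probe sets were not compared, since probe sets differ in how strongly they bind. Hippocampal neuron markers were well above the filter in all arrays: Snap25, a synaptic protein, averaged 15.05 and Prox1, a transcription factor of dentate granule cells, 8.36. Transcripts of neighbouring choroid plexus varied widely within each group, with list means of 7.22 to 10.64 in aged impaired, 6.71 to 10.53 in aged unimpaired and 7.35 to 10.42 in young samples. In this bulk tissue, fewer cells of a type and less RNA per cell cannot be told apart.

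None of the 22 probe sets of the pathway genes passed the test in any comparison (limma, adjusted p under 0.05 over all 27022 tested probe sets). Between aged impaired and aged unimpaired samples, 0 of 22 were called, beside 0.0111% of all tested probe sets. Between aged unimpaired and young samples the count was again 0, beside 0.137%. For aged impaired against young samples it was 0 beside 1.63%, and for the averaged aged groups against young samples 0 beside 0.947%. At an unadjusted p under 0.05 the counts of these probe sets were 0, 1, 2 and 1 in the same order of comparisons, beside 8.09%, 8.19%, 15.8% and 13.4% of all tested probe sets. The groups overlapped for every one of the 22 in every comparison, beside 0.525%, 0.766%, 2.01% and 0.303% of all tested probe sets without overlap. With shares this small, 0 of 22 called and 0 of 22 without overlap do not set these genes apart from all tested probe sets.

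**Figure D1:**
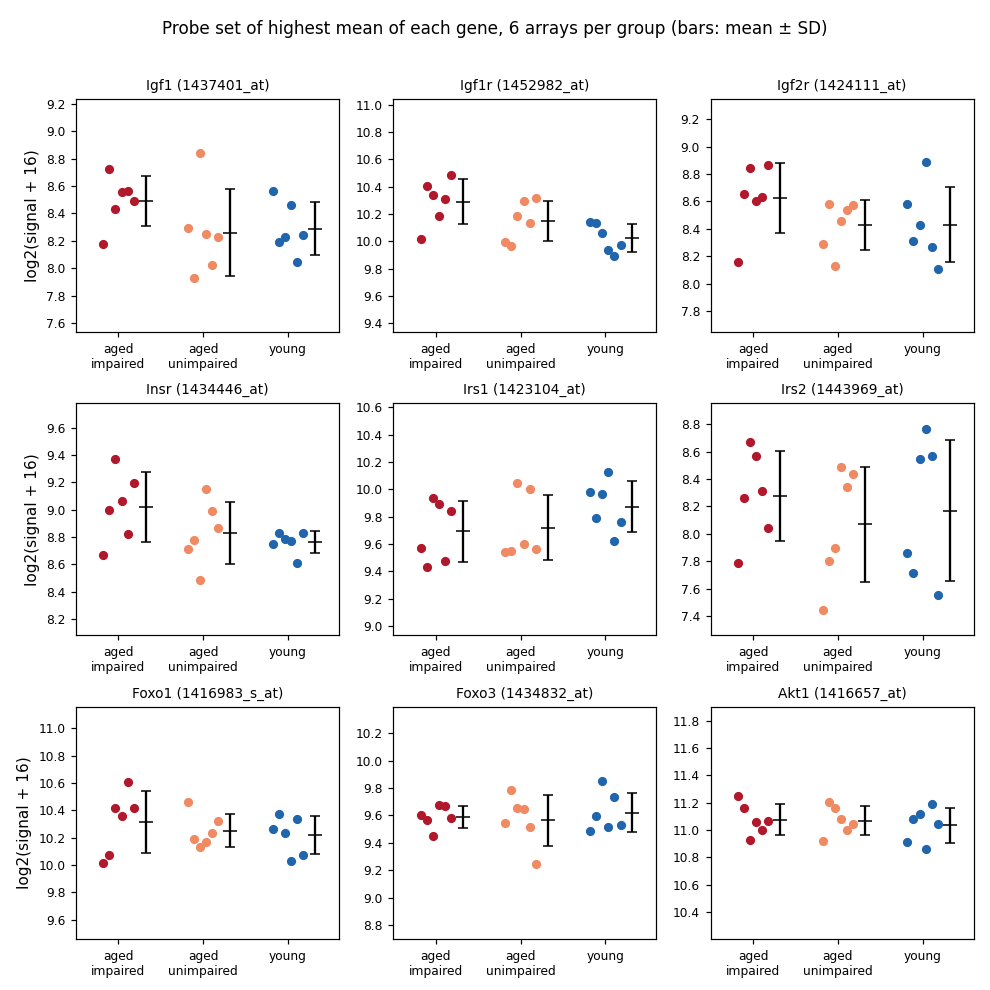
Log2(signal + 16) of each gene on its probe set of highest mean, with 1 point per array and the mean ± SD beside each group of 6 arrays. The groups overlap for all 9 genes; for Igf1r, 5 of the 6 aged impaired arrays lie above all young arrays.

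Igf1, a growth factor made in brain by neurons and glia and by the liver for the circulation, has 4 tested probe sets. On the probe set of highest mean (1437401_at), the lowest, median and highest values were 8.18, 8.52 and 8.72 in aged impaired samples, 7.93, 8.24 and 8.84 in aged unimpaired samples and 8.04, 8.24 and 8.57 in young samples. Aged impaired samples tended to lie highest, but the single highest array was an aged unimpaired one, replicate 3, and all groups overlapped. The log2 difference was 0.23 ± 0.13 for aged impaired minus aged unimpaired (limma, adjusted p = 0.696; 95% interval -0.05 to 0.51) and -0.03 ± 0.13 for aged unimpaired minus young (errors after ± are standard errors of the fit, n = 6 per group). The other 3 tested probe sets of Igf1 differed in sign. Their differences for aged impaired minus aged unimpaired were -0.06, -0.21 and 0.26. The last of these, 1452014_a_at, had the widest difference of the 22 between aged impaired and young samples, 0.44 ± 0.22 with a 95% interval of -0.03 to 0.91 (limma, adjusted p = 0.352). Across the 18 arrays, pairs of Igf1 probe sets correlated at Pearson r of -0.37 to 0.25. Over all 24 pairs of tested probe sets that share one of the 9 genes, r ran from -0.46 to 0.75, with a median of 0.17.

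Igf1r, the receptor tyrosine kinase for IGF1, came closest to the threshold. On 1452982_at the lowest, median and highest values were 10.02, 10.32 and 10.48 in aged impaired samples, 9.97, 10.16 and 10.32 in aged unimpaired samples and 9.89, 10.02 and 10.14 in young samples. The medians were ordered aged impaired, aged unimpaired, young, and 5 of 6 aged impaired arrays exceeded every young array. Neighbours in that order did not pass the test: the log2 difference was 0.14 ± 0.09 for aged impaired minus aged unimpaired (limma, adjusted p = 0.712) and 0.13 ± 0.09 for aged unimpaired minus young (adjusted p = 0.743). For aged impaired minus young it was 0.27 ± 0.09, or 1.20-fold with a 95% interval of 1.06 to 1.36 (limma, unadjusted p = 0.0065, adjusted p = 0.131). The mean of both aged groups exceeded that of the young group by 0.20 ± 0.07 (limma, adjusted p = 0.258), with 8 of 12 aged arrays above all young arrays.

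The 4 other Igf1r probe sets had differences nearer 0. For aged impaired minus young they stood at -0.10, -0.03, -0.03 and 0.20, with standard errors of 0.12 to 0.21. On the most precise of them, 1428967_at, the 95% interval ran from -0.28 to 0.23, which overlaps only the lower part of the interval of 0.085 to 0.45 found on 1452982_at. The correlation of 1452982_at with the other 4 across 18 arrays was 0.15 to 0.33. The probe sets of this receptor differed in sign, and the transcripts that each of them reads were not looked up here.

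Insr, the insulin receptor, was tested on 1 probe set (1434446_at). Its lowest, median and highest values were 8.67, 9.03 and 9.37 in aged impaired samples, 8.49, 8.82 and 9.15 in aged unimpaired samples and 8.61, 8.78 and 8.83 in young samples. Young arrays lay close together, with an SD of 0.08, while the aged groups spread more widely, with SDs of 0.25 in aged impaired and 0.23 in aged unimpaired samples. The log2 difference was 0.19 ± 0.12 for aged impaired minus aged unimpaired (limma, adjusted p = 0.709) and 0.07 ± 0.12 for aged unimpaired minus young (adjusted p = 0.928). For aged impaired minus young it was 0.26 ± 0.12 (limma, adjusted p = 0.290), with 4 of 6 aged impaired arrays above all young arrays. The dim Insr probe sets 1450225_at and 1421380_at, fitted only without the filter, had differences of -0.28 and -0.47 in that comparison, with standard errors of 0.32 and 0.28.

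Igf2r, the receptor that binds IGF2 and mannose 6-phosphate and carries them to lysosomes without a kinase of its own, was tested on 2 probe sets. The brighter one, 1424111_at, had lowest, median and highest values of 8.16, 8.64 and 8.87 in aged impaired samples, 8.13, 8.50 and 8.58 in aged unimpaired samples and 8.11, 8.37 and 8.89 in young samples. Of the aged impaired arrays, 5 of 6 lay above all aged unimpaired arrays, and replicate 1 lay below 5 of those 6. The difference was 0.20 ± 0.13 for aged impaired minus aged unimpaired (limma, adjusted p = 0.740), and on 1424112_at it was 0.17 ± 0.12 (adjusted p = 0.741). For aged unimpaired minus young the differences were -0.0018 and 0.02. This pair was the most alike of all pairs of probe sets of 1 gene, with Pearson r = 0.75 over 18 arrays (permutation p = 5e-04, adjusted p = 0.0120 over 24 such pairs) and Spearman rho = 0.61 (adjusted p = 0.0678). Without the 2 arrays farthest from the median, r was 0.66.

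**Figure D2:**
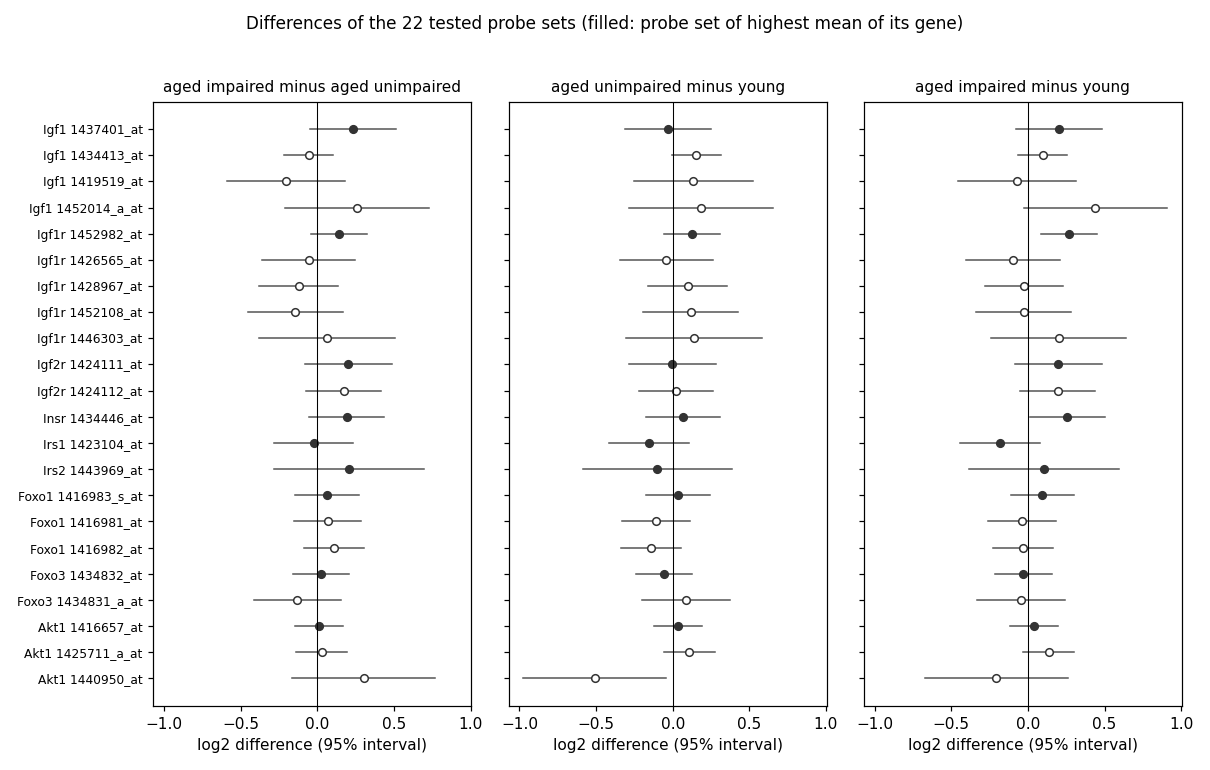
Log2 differences with 95% intervals of all 22 tested probe sets in aged impaired minus aged unimpaired, aged unimpaired minus young and aged impaired minus young samples, with the probe set of highest mean of each gene filled. Most intervals cross 0, and probe sets of Igf1, Igf1r, Foxo1 and Akt1 lie on both sides of 0 between aged impaired and young samples.

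Irs1 and Irs2 are the docking proteins that pass the signal of both receptors to PI3 kinase, and each was read by 1 probe set. Irs1 (1423104_at) had lowest, median and highest values of 9.43, 9.71 and 9.94 in aged impaired samples, 9.54, 9.58 and 10.04 in aged unimpaired samples and 9.62, 9.88 and 10.13 in young samples. It was the only one of the 9 genes, on the probe sets of highest mean, with a lower mean in both aged groups than in young samples by over 0.1. The difference was -0.18 ± 0.12 for aged impaired minus young (limma, adjusted p = 0.507) and -0.16 ± 0.12 for aged unimpaired minus young (adjusted p = 0.789). The aged groups themselves differed by -0.03 ± 0.12.

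Irs2 (1443969_at) had the largest pooled SD within groups of the 22 probe sets, 0.43. Its lowest, median and highest values were 7.79, 8.29 and 8.67 in aged impaired samples, 7.45, 8.12 and 8.49 in aged unimpaired samples and 7.55, 8.21 and 8.77 in young samples, so every group covered nearly the same range. The differences were 0.21 ± 0.23 for aged impaired minus aged unimpaired, -0.10 ± 0.23 for aged unimpaired minus young and 0.10 ± 0.23 for aged impaired minus young. Their 95% intervals reached 0.69 and -0.59 at the widest, so differences of Irs2 up to that size lie within the error.

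Akt1, the serine kinase downstream of PI3 kinase, had, on 1416657_at, the narrowest range over the 18 arrays of the 22 probe sets. The lowest, median and highest values were 10.92, 11.06 and 11.25 in aged impaired samples, 10.92, 11.06 and 11.21 in aged unimpaired samples and 10.86, 11.06 and 11.19 in young samples. The 3 groups were nearly superimposed. The difference for aged impaired minus aged unimpaired was 0.0073 ± 0.07, with a 95% interval of -0.15 to 0.16, and for aged impaired minus young 0.04 ± 0.07, with an interval of -0.11 to 0.20. On 1425711_a_at, aged impaired minus young was 0.13 ± 0.08 (limma, adjusted p = 0.434).

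The dim Akt1 probe set 1440950_at was the only one of the 22 with an unadjusted p under 0.05 between aged unimpaired and young samples. Its lowest, median and highest values were 5.52, 6.49 and 6.77 in aged unimpaired samples and 6.65, 6.76 and 7.07 in young samples. Aged unimpaired replicates 3 and 5 were the lowest arrays, and the groups overlapped. The difference was -0.51 ± 0.22 (limma, adjusted p = 0.556), opposite in sign to the 0.11 ± 0.08 of 1425711_a_at. The 2 probe sets also ran in opposite directions across 18 arrays, with Pearson r = -0.46 (permutation p = 0.0535, adjusted p = 0.195) and Spearman rho = -0.64 (adjusted p = 0.0678).

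Foxo1 and Foxo3 encode the transcription factors that Akt restrains. Foxo1 on 1416983_s_at had lowest, median and highest values of 10.01, 10.39 and 10.61 in aged impaired samples, 10.13, 10.21 and 10.46 in aged unimpaired samples and 10.03, 10.25 and 10.38 in young samples. Aged impaired replicates 1 and 2 were the lowest of their group, and its other 4 arrays stood near the top of the range. The differences were 0.06 ± 0.10 for aged impaired minus aged unimpaired and 0.09 ± 0.10 for aged impaired minus young, and on the other 2 tested probe sets of Foxo1 aged impaired minus young was -0.04 and -0.03. Probe sets 1416981_at and 1416982_at of Foxo1 correlated at r = 0.66 across arrays (permutation p = 0.0024, adjusted p = 0.0288) and at rho = 0.63 (adjusted p = 0.0678), with r = 0.50 without the 2 arrays farthest from the median.

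Foxo3 on 1434832_at had lowest, median and highest values of 9.45, 9.59 and 9.67 in aged impaired samples, 9.24, 9.60 and 9.79 in aged unimpaired samples and 9.49, 9.57 and 9.85 in young samples. The group medians nearly coincided, and all groups overlapped. The 95% interval for aged impaired minus aged unimpaired was -0.16 to 0.21 and that for aged impaired minus young -0.21 to 0.15. On 1434831_a_at the differences were -0.13 ± 0.14 and -0.05 ± 0.14 in those comparisons.

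For the 9 genes as a group, the median difference of the 22 probe sets was 0.06 for aged impaired minus aged unimpaired, beside 0.0058 over all tested probe sets, 0.03 beside -0.014 for aged unimpaired minus young, and 0.07 beside -0.010 for aged impaired minus young. In the first comparison 15 of the 22 differences were above 0, beside 51.8% of all tested probe sets. The counts were 13 beside 45.8% for aged unimpaired minus young and 12 beside 47.5% for aged impaired minus young. On the probe sets of highest mean, 8 of 9 genes, all but Irs1, had a difference above 0 for aged impaired minus aged unimpaired, beside 52.3% of all genes. In the same order as before, the other 2 comparisons had 4 of 9 beside 47.7% and 7 of 9 beside 49.2%. The probe sets share arrays and some share a gene, and no test was made of these shares.

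Across the 18 arrays, the 3 receptors tended to be high and low together. Igf1r and Insr correlated at Pearson r = 0.66 (permutation p = 0.0027) and Spearman rho = 0.66 (permutation p = 0.0038), and r was 0.58 without the 2 arrays farthest from the median of Igf1r. Igf2r and Insr stood at r = 0.65 and rho = 0.54, and Igf1r with Igf2r at r = 0.50 and rho = 0.47. After adjustment over the 36 pairs of genes none passed, with a lowest adjusted p of 0.0725 for r and 0.0686 for rho. Taken as deviations from the group means, r was 0.52 for Igf1r with Insr, 0.57 for Igf2r with Insr and 0.40 for Igf1r with Igf2r. Akt1 ran with Foxo3 (r = 0.52, rho = 0.68, adjusted p = 0.197 for r and 0.0686 for rho) and against Igf2r (r = -0.49, adjusted p = 0.202). The median r of all 36 pairs was 0.05.

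**Figure D3:**
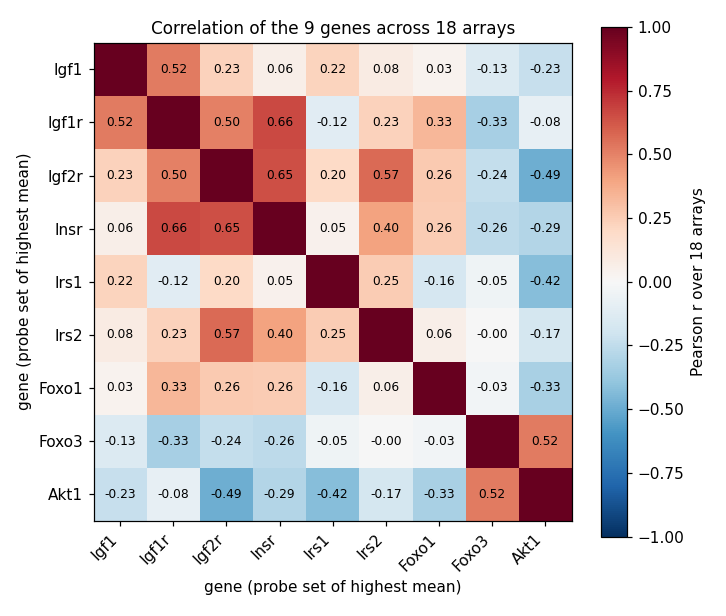
Pearson r between the 9 genes over 18 arrays, read from the probe set with the highest mean, on a colour scale of -1 to 1. The receptors Igf1r, Igf2r and Insr form a block of positive values (0.50 to 0.66), and Foxo3 and Akt1 correlate at 0.52.

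The genes whose pattern over the 18 arrays was most like each of these, by Pearson r on probe sets of highest mean, were chosen by rank and carry no test. For Igf1r they were Ppp1r3e (r = 0.89), Reep3 (0.87) and Ube3a (0.86). For Insr they were Acadsb (0.75), Cd2ap (0.73) and Pfas (0.73), and for Igf2r Apba2 (0.83), Mtdh (0.82) and Abca1 (0.78). Irs2 ran closely with Zfp148 (0.90), Srpk2 (0.89) and Map1b (0.88). For Igf1 the nearest were Ssna1 (0.81), Taf4b (0.76) and Abraxas2 (0.76), and for Irs1 Lpcat4 (0.83), Stt3b (0.80) and Nap1l4 (0.78). Foxo1 was closest to Slit2 (0.78), Cluh (0.77) and Farsb (0.76), Foxo3 to Fam117b (0.76), Rfxap (0.76) and Prelid3b (0.74), and Akt1 to Gm6607 (0.86), Fbxw11 (0.76) and Ldhd (0.71).

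Several marker lists differed between groups in which Igf1r, without passing the test, had its highest and lowest means. The activated microglia list had 9 of its 12 genes tested, and its mean lay between 9.21 and 9.72 in aged impaired, 8.94 and 9.77 in aged unimpaired and 8.26 and 8.79 in young samples. Aged impaired minus young was 0.88 (exact permutation p = 0.0022, 2-sided, the smallest that 6 against 6 allows, and adjusted p = 0.0211 over 39 tests of array measures). Aged unimpaired minus young was 0.62 with the same p. By gene, 8 of 9 were higher than in young samples in both comparisons, with smaller median differences of 0.51 and 0.39. The oligodendrocyte list (10 of 11 genes tested) lay between 12.23 and 12.35 in aged impaired, 11.80 and 12.24 in aged unimpaired and 11.76 and 12.26 in young samples, and was higher in aged impaired than in aged unimpaired samples by 0.21 and than in young samples by 0.29 (exact permutation, adjusted p = 0.0362 for both). For aged unimpaired minus young that list stood at 0.08 (exact permutation, adjusted p = 0.660).

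Other lists differed as well. The microglia list was higher by 0.67 in aged impaired and by 0.53 in aged unimpaired than in young samples (exact permutation, adjusted p = 0.0211 for both). The list mean of glucocorticoid-induced genes was higher by 0.45 in aged impaired and by 0.24 in aged unimpaired than in young samples (exact permutation, adjusted p = 0.0362 and 0.0469). By gene, 10 of 12 were higher in aged impaired samples, with a median difference of 0.36. In aged unimpaired samples 8 were higher and 4 lower, with a median of 0.08. The list for meninges and fibroblasts was lower in aged unimpaired than in young samples, with a difference of -0.61 (exact permutation, adjusted p = 0.0469), and stood at -0.53 for aged impaired minus young (adjusted p = 0.0537). The astrocyte list, at 0.08 for aged impaired minus young (adjusted p = 0.327), and the oligodendrocyte precursor list, at -0.15 (adjusted p = 0.120), did not pass.

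Over all 18 arrays, Igf1r and the activated microglia list correlated at r = 0.74 (permutation, adjusted p = 0.0515) and rho = 0.78 (adjusted p = 0.0374). Of the 117 relations over 18 arrays, this was the only one under 0.05 after adjustment, and for rho alone. Since the activated microglia list separated aged from young arrays, its relation to Igf1r was read within each age. Within the 12 aged arrays, Igf1r and this list correlated at r = 0.71 (permutation p = 0.0116) and rho = 0.76 (permutation p = 0.0052), with r = 0.70 without the 2 arrays farthest from the median. Within the 6 young arrays r was 0.13 (exact permutation p = 0.778). Igf1r and the oligodendrocyte list correlated at r = 0.73 in aged arrays (permutation p = 0.0043) and at -0.71 in young arrays (exact permutation p = 0.119). The aged r fell to 0.41 without the 2 arrays farthest from the list median, so its size depends on those. In ranks, rho over the 12 aged arrays was 0.77 (permutation p = 0.0049, adjusted p = 0.202). Within aged arrays, Igf1r correlated at r = 0.59 with the microglia list, at 0.53 with glucocorticoid-induced genes and at 0.05 with meninges and fibroblasts. Without the 2 arrays farthest from the median of each list, these values were 0.49, 0.13 and 0.34. The size of r for glucocorticoid-induced genes thus depends on those arrays, while rho over the 12 was 0.63 (permutation p = 0.0320, adjusted p = 0.469). None passed after adjustment over the 117 relations computed at each age (adjusted p = 0.453 for activated microglia, 0.364 for oligodendrocytes, 0.679 for microglia, 0.764 for glucocorticoid-induced genes and 1.00 for meninges, for r in aged arrays). The 12 aged arrays pool 2 groups, so a difference between those groups can add to the aged values. As deviations from the group means over 18 arrays, Igf1r correlated at r = 0.53 with activated microglia and 0.20 with oligodendrocytes. With microglia, glucocorticoid-induced genes and meninges the values were 0.40, 0.39 and 0.12. The part of these lists in the Igf1r difference was not tested. Among the other genes, Foxo3 correlated with meninges and fibroblasts at r = -0.72 in aged arrays (permutation, adjusted p = 0.364) and at 0.20 in young arrays.

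**Figure D4:**
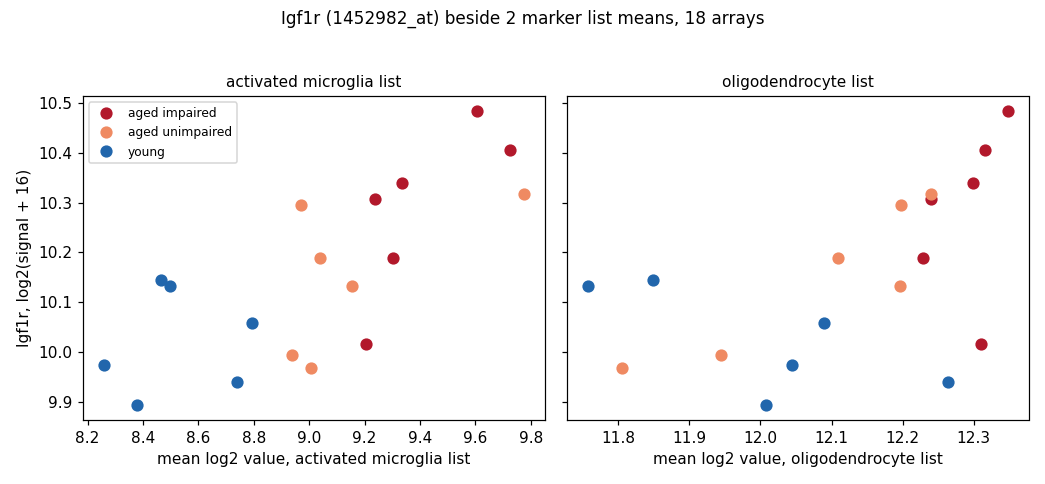
Igf1r (1452982_at, log2(signal + 16), vertical axis) against the mean log2 value of the activated microglia list and of the oligodendrocyte list (horizontal axes), 1 point per array. The activated microglia list separates aged from young arrays, and within the 12 aged arrays Igf1r runs with it at r = 0.71. As deviations from the group means over 18 arrays, r is 0.53.

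The rest of the pathway was read from 8 lists of 92 genes, of which 73 had a tested probe set. By list, 7 were ligands and binding proteins, 11 receptor-proximal adaptors and brakes, 12 genes of the PI3 kinase, Akt and GSK3 arm, 12 of mTOR and its outputs, 4 of the Ras and MAPK arm, 6 FOXO factors and regulators, 17 FOXO-induced genes and 4 genes of the growth hormone axis. Called genes numbered 0 of 73 for aged impaired minus aged unimpaired (beside 0.00762% of all genes tested), 0 for aged unimpaired minus young (beside 0.145%), 2 for aged impaired minus young (beside 1.9%) and 1 for the mean of both aged groups minus young (beside 1.19%). At an unadjusted p under 0.05 in limma there were 5, 7, 16 and 10 of the 73 in the same order, beside 8.06%, 8.45%, 16.2% and 13.9% of all genes tested. The 2 and 1 called genes are 2.74% and 1.37% of the 73, so the called counts are near those shares in every comparison. At the unadjusted threshold the first, second and last counts are close as well, and the third, 16 of 73, lies somewhat above 16.2%. No test was made of these shares.

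Akt1s1, which encodes PRAS40, an Akt substrate that inhibits mTOR complex 1, was lower in aged impaired than in young samples. Its lowest and highest values on 1428158_at were 10.30 and 10.41 in aged impaired samples and 10.51 and 10.80 in young samples. All 6 aged impaired arrays lay below all young arrays, with a log2 difference of -0.27 ± 0.06 (limma, adjusted p = 0.0225) and one of -0.29 on its second probe set. It also fell when both aged groups were averaged and set against young samples, by 0.22 ± 0.05 (limma, adjusted p = 0.0421). The first call was lost with no filter (adjusted p = 0.0779), when the third group was dropped from the fit (0.0752) and without aged impaired replicate 3 (0.0501), within a range of 0.0103 to 0.0779 over 30 alternatives. The second call was lost with no filter (0.132) and without any one of 14 single arrays, aged impaired 1, 3, 4 and 6, aged unimpaired 1, 3, 4, 5 and 6 and young 2, 3, 4, 5 and 6 (0.0568 to 0.103), within a range of 0.0241 to 0.132 over 29 alternatives. With the sample number as a block, adjusted p was 0.0702 for the first call and 0.113 for the second. No gene of the mTOR list was called between the aged groups (limma, lowest adjusted p = 0.617) or between aged unimpaired and young samples (0.399).

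Sgk1 is a kinase related to Akt that also phosphorylates FOXO3 and is known to be induced by glucocorticoids. It was higher in aged impaired than in young samples. Its values on 1416041_at ran between 11.37 and 12.31 in aged impaired samples and between 10.92 and 11.22 in young samples, without overlap. The log2 difference was 0.57 ± 0.14 (limma, adjusted p = 0.0400; range 0.0128 to 0.0969 over 30 alternatives). This call was lost without any one of 9 single arrays, aged impaired 2 and 3, aged unimpaired 1 and 3 and young 1, 2, 3, 5 and 6 (adjusted p 0.0506 to 0.0856), with no filter (0.0902) and with the sample number as a block (0.0738). No FOXO factor or regulator was called between the aged groups (limma, lowest adjusted p = 0.428) or between aged unimpaired and young samples (0.434). A list of 12 glucocorticoid-induced genes had means of 9.65 to 10.65 in aged impaired and 9.45 to 9.75 in young samples (difference 0.45, exact permutation, adjusted p = 0.0362). Its part in the Sgk1 difference was not tested.

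**Figure D5:**
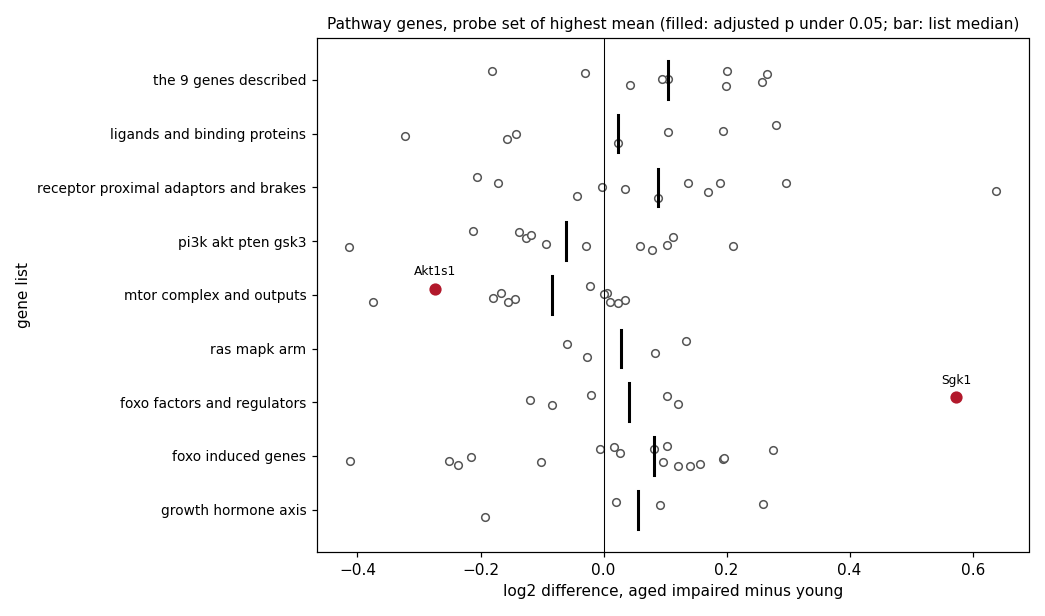
Log2 difference, aged impaired minus young, of each pathway gene on its probe set of highest mean, by list, with the list median as a bar and called genes filled. Akt1s1 (-0.27) and Sgk1 (0.57) are the called genes, and the medians of the lists lie between -0.08 and 0.09.

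No other gene of the lists passed, so the following are values only, and some genes with an unadjusted p under 0.05 are not given. Among binding proteins, Igfbp4 had a difference of 0.26 ± 0.10 for aged unimpaired minus young (limma, adjusted p = 0.467) and Igfbp7 one of 0.28 ± 0.13 for aged impaired minus young (adjusted p = 0.316). Among brakes on the receptor, Socs3, a cytokine-induced inhibitor, stood at 0.84 ± 0.29 for aged unimpaired minus young (adjusted p = 0.402), and Ptpn1, the phosphatase that acts on Insr, at 0.19 ± 0.08 for aged impaired minus young (adjusted p = 0.280). In the PI3 kinase arm the values for aged impaired minus young were -0.41 ± 0.13 for Inppl1, the lipid phosphatase SHIP2 (adjusted p = 0.111), and -0.21 ± 0.10 for the kinase Gsk3a (adjusted p = 0.284).

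Among mTOR genes, aged impaired minus young was -0.37 ± 0.12 for Eif4ebp2, a translation repressor (limma, adjusted p = 0.125), and -0.18 ± 0.08 for Mlst8, a subunit of both mTOR complexes (adjusted p = 0.307). Other probe sets of Eif4ebp2 gave -0.23, 0.02 and -0.07. The list median was -0.08, beside -0.0030 over all genes tested. Braf, a kinase of the MAPK arm, had 0.20 ± 0.07 for aged unimpaired minus young (limma, adjusted p = 0.399), with 3 of its 6 other probe sets of the opposite sign. Ghr, the growth hormone receptor, had 0.26 ± 0.12 for aged impaired minus young (adjusted p = 0.311).

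FOXO targets gave no common direction. Of 17 FOXO-induced genes, 0 were called for aged impaired minus young beside 1.9% of all genes tested, and 6 had an unadjusted p under 0.05 in limma, beside 16.2%. The 4 of lowest p had lower means in aged impaired samples: Cdkn1b, a cell cycle inhibitor (-0.41 ± 0.14), Cited2, a transcriptional coregulator (-0.25 ± 0.09), Ccng2, a cyclin (-0.22 ± 0.08), and Bcl6, a transcriptional repressor (-0.24 ± 0.09), with adjusted p of 0.157 to 0.204. Klf15 (0.28 ± 0.11) and Bnip3 (0.16 ± 0.07), a transcription factor and a mitophagy receptor, were the other 2 and stood above 0. In all, 11 of the 17 had a higher mean in aged impaired samples, beside 49.2% of all genes tested. The list median was 0.08, beside -0.0030 over all genes tested, and no test was made of these shares. Between the aged groups, Ccng2 stood at -0.18 ± 0.08 and Gadd45a, a DNA damage response gene, at -0.32 ± 0.14 (limma, adjusted p = 0.582 and 0.583). Pink1, a mitochondrial kinase, stood at 0.22 ± 0.10 for aged unimpaired minus young (adjusted p = 0.581). Foxo4, another FOXO factor, had 0.27 ± 0.13 for aged impaired minus aged unimpaired and -0.35 ± 0.13 for aged unimpaired minus young (adjusted p = 0.616 and 0.434).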

How the data were processed

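Probe set intensity on a linear scale was used as the authors deposited it, and the submitters' processing notes name MAS5 with no version. RNA was labelled with biotin, per the labels' protocols. Precision is limited by the number of arrays, since arrays carry no depth of sequencing. The deposited median signal per array was 23.5 to 30.5, and no pair of arrays held identical values.

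Signals were multiplied so that the mean of every array, with 2% trimmed at each end, was 500, then 16 was added before taking log2. The 64 control probe sets and the 40% of other probe sets with the lowest mean were left out, which left 27022 with a mean above 5.92. The platform annotation gave 1 symbol to 34945 probe sets, several to 932 and none to 9160, and 34741 of the first kind were found in RefSeq.

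A model of 3 group means over all 18 samples was fitted with limma 3.58.1 (R 4.3.3), with empirical Bayes moderation and Benjamini-Hochberg adjustment over all tested probe sets. The procedure was tested on simulated data. List means were compared by exact permutation. Permutation p-values for correlations between genes were added to the planned description. The genes and lists were chosen with earlier results of these data known. Named were all probe sets of the 9 genes and the 3 genes most like each. From each pathway list the called genes were described. Of the up to 4 genes of lowest p per comparison, some with an unadjusted p under 0.05 were described and others were not. The alternatives changed the scaling (quantile normalization), the offset (1 or 64), the filter (none, or 60%), the model (a block for the sample number, a covariate for the 3' to 5' ratio or for choroid plexus, array weights, trended or robust moderation, the third group dropped) or the samples (each left out in turn).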

Additional observations from a re-analysis of the deposited data

Results flagged for a closer look

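These values lay far from the others of their group of 6 by Dixon's test, in 12 of the 174 groups examined, where chance gives about 1 in 20. Among the receptors, Igf1r on 1428967_at was low in aged impaired replicate 1 (7.32, next value 7.75), as was Igf2r on 1424111_at in the same array (8.16, next value 8.60). Igf2r on 1424112_at was high in aged unimpaired replicate 5 (8.77, next value 8.40), and Insr on 1434446_at low in young replicate 5 (8.61, next value 8.75). Of the dim probe sets, Foxo1 1456529_at was high in aged impaired replicate 5 (5.61) and Akt1 1442759_at in aged impaired replicate 2 (5.22).

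Among the other pathway genes, Braf was high in aged impaired replicate 6 (11.52), Gsk3a was high in aged impaired replicate 5 (11.68) and Ccng2 was low in aged impaired replicate 3 (10.89). Socs3 was high in young replicate 3 (7.52, next value 6.39). Aged unimpaired replicate 6 had the highest means of its group for the microglia list (10.42, next value 10.02) and the activated microglia list (9.77, next value 9.15).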

How the results depend on the processing

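None of the tested probe sets of the 9 genes was called in any comparison under any alternative run. Over the 2598 values computed for these genes, the lowest adjusted p in limma was 0.0626, for Igf1r in aged impaired minus young without aged impaired replicate 1, and no difference moved by over 1 SD. For that comparison Igf1r ran between 0.23 and 0.32 and Insr between 0.19 and 0.33, with adjusted p of 0.0626 to 0.254 and 0.155 to 0.470.

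Counts over all tested probe sets moved more, and the cause was not tested. For aged impaired minus aged unimpaired (3 called) they were 6 with a filter of 60%, 8 with trended moderation, 0 when the third group was dropped and 2 to 4 without single samples. For aged unimpaired minus young (37 called) they were 13 with no filter, 23 with the 3' to 5' ratio, 57 with array weights, 63 with trended moderation, 22 with the third group dropped and 16 to 37 without single samples. For aged impaired minus young (440 called) they were 193 with no filter, 241 with the third group dropped and 228 to 467 without single samples. For both aged groups minus young (256 called) they were 131 with no filter and 116 to 274 without single samples. Called pathway genes for aged impaired minus young (2) numbered 0 with no filter, 1 with array weights, which ended the Sgk1 call (adjusted p = 0.0503), 0 with the third group dropped (Sgk1 0.0969) and 0 to 2 without single samples. For both aged groups minus young (1) there were 0 with no filter (Akt1s1 0.132) and 0 to 1 without single samples.

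With the sample number as a replicate block the counts in these 4 comparisons were 0, 17, 240 and 141, and the called pathway genes 0 for both aged impaired minus young and both aged groups minus young. The numbers did not pair the samples: deviations of same-numbered samples from their group means correlated at -0.25 to 0.0957 over 18 pairs, and 0 samples correlated best with their own number.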
